A study of Mus musculus with 22 samples.

Results

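The 10 integrin genes examined here encode the best known leukocyte and matrix integrins, and they were taken as the rows for Itgam, Itgal, Itgb2, Itga4, Itga5, Itga6, Itgav, Itgb1, Itgb3 and Itgb5 in a count table of 21995 genes. The rows were taken by gene name, and all 10 were found. The table holds 26 integrin subunit genes in all, so 16 other subunits were kept apart as a comparison list. RNA came from whole spinal cord of 22 C57BL/6 mice. The aging experiment had 8 young mice of 3 to 4 months and 8 old mice of 18 to 24 months, all of them male and wild type, with libraries made by the Roche KAPA HyperPrep kit. The ALS experiment had 3 SOD1-G93A mice, symptomatic carriers of many copies of a mutant human SOD1 transgene, and 3 wild-type controls. Both of these groups were 5 to 6 months old by their labels, held females and males, and were prepared with Illumina TruSeq. Kit, sex and experiment therefore coincide, and each comparison was made within its own experiment.

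Integrins are membrane receptors made of 1 alpha and 1 beta chain. The beta chain of the leukocyte family, CD18, is encoded by Itgb2 and pairs with CD11b (Itgam) to form complement receptor 3, with CD11a (Itgal) to form LFA-1, and with CD11c (Itgax). The widely expressed beta chain encoded by Itgb1 pairs with the chains of Itga4 (a receptor for VCAM-1 and fibronectin), Itga5 (the classical fibronectin receptor), Itga6 (a laminin receptor) and Itgav. The chain of Itgav also pairs with those of Itgb3 and Itgb5 to bind vitronectin, osteopontin and other proteins with an RGD motif. Below, the leukocyte genes are Itgb2, Itgam and Itgal, and the other members are called matrix integrins. Itga4 is placed with the latter as a fibronectin receptor, although lymphocytes carry it too. In the spinal cord microglia are the main resident cells with CD11b and CD18, and alphaV and beta1 chains are found on glia, vessels and neurons.

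The genes lie at the following places in GRCm38 (GENCODE M21), each a protein-coding gene. Itgam is at chr7:128062640-128118491 and Itgal at chr7:127296260-127335138, both on the plus strand of 1 chromosome, and Itgb2 is at chr10:77530252-77565708 on the plus strand. Among the beta1 partners, Itga4 is at chr2:79255426-79333123 and Itga6 at chr2:71745616-71858416, both on the plus strand, and Itga5 is at chr15:103344286-103366763 on the minus strand. Itgav is at chr2:83724397-83806916, Itgb1 at chr8:128685654-128733200, Itgb3 at chr11:104608000-104670476 and Itgb5 at chr16:33829665-33949338, all on the plus strand. The annotated span of Itgam overlaps a second protein-coding gene, Gm49368, on the same strand, and Itga4 overlaps Cerkl on the other strand. Some reads of the overlap with Gm49368 could have been assigned to either gene, whether or not the counting used strand. Use of strand is not stated, so the same could hold for the overlap with Cerkl. Itga5, Itga6 and Itgav overlap only genes annotated as noncoding or as pseudogenes.

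Promoter sequence was available for 6 of the 10 genes in a RefSeq-derived table (GRCm38.p6) that runs from 250 bases before each start site to 50 after it. The 250 bases before the start are printed for Itgam, Itga5 and Itgb5, the 3 of those 6 that were called higher in both comparisons described further on. Capitals mark GAGGAA, a purine-rich sequence that ETS-family factors such as the myeloid factor PU.1 can bind, or its reverse complement TTCCTC where it lies on the other strand. The Itgam window is chr7:128062390-128062639 on the plus strand, the Itga5 window chr15:103366792-103367041 on the minus strand, and the Itgb5 window chr16:33829415-33829664 on the plus strand. For Itga5 the start site used (chr15:103366791) lies outside the GENCODE span, which ends at 103366763. The 2 annotations thus place this start differently, and the window is counted from the former.
Itgam: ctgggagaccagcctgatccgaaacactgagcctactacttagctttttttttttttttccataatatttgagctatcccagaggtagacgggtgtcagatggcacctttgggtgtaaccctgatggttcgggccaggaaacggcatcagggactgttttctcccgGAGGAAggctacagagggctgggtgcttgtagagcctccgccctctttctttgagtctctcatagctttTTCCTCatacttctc
Itga5: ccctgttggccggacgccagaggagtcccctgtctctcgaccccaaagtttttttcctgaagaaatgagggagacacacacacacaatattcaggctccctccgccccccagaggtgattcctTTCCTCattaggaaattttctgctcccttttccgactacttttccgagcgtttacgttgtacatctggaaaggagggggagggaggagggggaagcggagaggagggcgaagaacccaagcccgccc
Itgb5: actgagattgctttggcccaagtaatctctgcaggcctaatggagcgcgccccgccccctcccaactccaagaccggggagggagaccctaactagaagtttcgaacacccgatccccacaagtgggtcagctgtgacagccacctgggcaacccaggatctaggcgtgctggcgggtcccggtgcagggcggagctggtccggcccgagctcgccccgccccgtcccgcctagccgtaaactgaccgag
The Itgam sequence holds GAGGAA beginning 84 bases before the start and its reverse complement beginning 15 bases before it, and a further match falls within the 50 bases after the start. Among all 32851 promoters, 28.3% held GAGGAA at least once and 0.685% held it 3 times or more, on either strand. Itga5 had 1 match and Itgb5 had none, while Itgav had 2, Itgb1 had 1 and Itga4 had none. GGGCGG, the GC box, occurred in all 6 windows against 35.7% of all promoters. TGTGGT, a RUNX-type sequence, was found in Itga4 alone (16.8% of all promoters), and TGACTCA, an AP-1 site, in 0 of the 6 (5.2% of all promoters). These matches are letters in a window, and binding was not measured.

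Total counts per library ran from 5078092 to 9358055 in the young group, 5664869 to 9145600 in the old group, 10693060 to 13219797 in the control group and 9675610 to 11872431 in the SOD1-G93A group. A count of 3, taken as the floor, corresponds to between 0.231 and 0.582 CPM (counts scaled by the library's total after TMM normalization) depending on the library, for counting error only. The mouse Sod1 row was 160 ± 6.56 CPM (SD) in the 3 controls and 310 ± 22 CPM in the 3 SOD1-G93A libraries (edgeR's quasi-likelihood test, log2 fold change 0.95, Benjamini-Hochberg adjusted p = 0.000241). Whether reads of the human transgene were counted there was not tested. Microglial marker genes were measured in every library, while the T cell and neutrophil lists held 0 genes with enough counts to be tested in either comparison.

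To place the integrins on a common scale, levels were compared between genes as FPKM, which is scaled by transcript length. In young cord Itgav was highest at 30.1 ± 3.10 FPKM (SD, n = 8), followed by Itgb1 at 26.8 ± 1.74, Itgb5 at 20.4 ± 2.14 and Itga6 at 15.4 ± 1.25. The most abundant genes were thus matrix integrins, but not every matrix integrin was abundant. The leukocyte genes Itgam and Itgb2 came next, at 4.41 ± 0.453 and 2.55 ± 0.299 FPKM in young cord. The matrix integrins Itgb3 at 1.14 ± 0.122 FPKM, Itga4 at 0.690 ± 0.163 and Itga5 at 0.494 ± 0.0881 lay below both. The leukocyte gene Itgal was lowest at 0.104 ± 0.0283 FPKM. Among neighbours in this order, Itgav and Itgb1, Itgb1 and Itgb5, and Itga4 and Itga5 overlapped between libraries, and the others did not.

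The order was different in old cord. Itgb5 was now first at 38.7 ± 4.97 FPKM (n = 8), with Itgav and Itgb1 level behind it at 27.7 ± 6.22 and 27.7 ± 1.85 FPKM. Itgb2 at 11.5 ± 3.27 FPKM stood above Itgam at 8.60 ± 1.26 FPKM, the reverse of the young order, although the libraries of this pair overlapped. Itga5 moved from ninth place to seventh at 1.60 ± 0.374 FPKM. In the ALS experiment Itgb1 led in the controls at 26.4 ± 0.583 FPKM (n = 3), and Itgb5 led in SOD1-G93A cord at 67.7 ± 19.5 FPKM. Itgav was 20.8 ± 2.02 FPKM in controls against 30.1 ± 3.10 in young cord, although its CPM was alike (142 ± 6.70 and 138 ± 6.38). Its place in the FPKM order is therefore not compared between the experiments. Itgb2 again passed Itgam, from 2.41 ± 0.451 against 4.47 ± 0.641 FPKM in controls to 25.1 ± 5.85 against 19.6 ± 2.55 FPKM in SOD1-G93A cord.

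To examine how the leukocyte integrins behaved with age, CPM values were compared between old and young cord. Itgb2 and Itgam were both higher in every old library than in any young library. Itgb2 ranged from 5.82 to 7.91 CPM in the 8 young libraries with a median of 7.15, and from 15.4 to 42.2 CPM in the 8 old libraries with a median of 36.5. Itgam ranged from 17.5 to 23.6 CPM in young cord with a median of 21.4, and from 35.0 to 47.7 CPM in old cord with a median of 43.3. The old range of Itgb2 was therefore much broader than that of Itgam, since 6 old libraries lay at 34.4 CPM or more and the other two at 15.4 and 21.7. By edgeR's quasi-likelihood test Itgb2 was 4.71-fold higher in old cord (log2 2.23, SE 0.16, Benjamini-Hochberg adjusted p = 5.81e-10). Itgam was 2-fold higher (log2 1.001, SE 0.07, adjusted p = 4.66e-10 in the same edgeR test). Its log2 value lay so close to the threshold of 1 that leaving out single libraries moved it between 0.96 and 1.03.

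Itgal, the LFA-1 alpha chain, was too scarce for that test in the aging experiment. It had 2 to 5 counts in each young library and 1 to 23 in each old library, or 0.456 ± 0.137 and 1.46 ± 0.695 CPM (SD, n = 8 each). Of the 8 old libraries 7 were above all young ones and 1 was below all of them. In an edgeR fit of 18634 genes without the filter on low counts, Itgal was higher in old cord with a log2 fold change of 1.67 (SE 0.37, adjusted p = 0.00169).

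The matrix integrins split into genes that rose with age and genes that did not pass the test. Itga5, the fibronectin receptor alpha chain, ranged from 1.65 to 2.73 CPM in young cord with a median of 2.36, and from 4.63 to 9.19 CPM in old cord with a median of 7.32. Itgb5, a vitronectin receptor beta chain, ranged from 51.3 to 66.8 CPM in young cord with a median of 62.5, and from 77.4 to 128 CPM in old cord with a median of 113. No old library of either gene overlapped the young range. Itga5 was 3.20-fold higher in old cord (edgeR log2 1.68, SE 0.15, adjusted p = 2.05e-08) and Itgb5 was 1.80-fold higher (edgeR log2 0.85, SE 0.09, adjusted p = 8.76e-08).

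The remaining matrix integrins had overlapping groups. Itgb1, the common beta chain, was 109 ± 4.57 CPM in old cord and 104 ± 4.96 in young cord (SD, n = 8 each; edgeR log2 0.07, SE 0.04, adjusted p = 0.245). Itgav was 137 ± 6.4 against 138 ± 6.38 CPM, with an SE of 0.04 on the log2 scale and adjusted p = 0.964 by edgeR. Itga6 was 55.5 ± 8.22 against 55.4 ± 4.82 CPM (edgeR log2 0.01, SE 0.08, adjusted p = 0.972). These 3 genes are abundant, so their standard errors were small and their log2 differences lay within 0.07 of 0. For the scarcer Itga4 the values were 7.95 ± 1.79 and 7.01 ± 1.63 CPM (edgeR log2 0.16, SE 0.16, adjusted p = 0.482), and for Itgb3 they were 6.41 ± 1.70 and 6.96 ± 0.801 CPM (edgeR log2 -0.14, SE 0.14, adjusted p = 0.490). The standard errors of these latter genes were larger, and differences of that size could not be detected.

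In all, 9 of the 10 integrins could be tested with age, of which 4 were higher, 0 were lower and 5 did not pass an adjusted p of 0.05. Across the 13647 genes tested 13.5% were higher and 12.9% were lower by the same rule. The 3 integrins that were also past a log2 fold change of 1 (Itgb2, Itga5 and Itgam) compare with 2.18% of all genes. The 4 genes with complete separation of the 8 old from the 8 young libraries compare with 3.66% of all genes. The median log2 fold change was 0.16 over the 9 integrins tested and -0.00 over all genes.

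**Figure D1:**
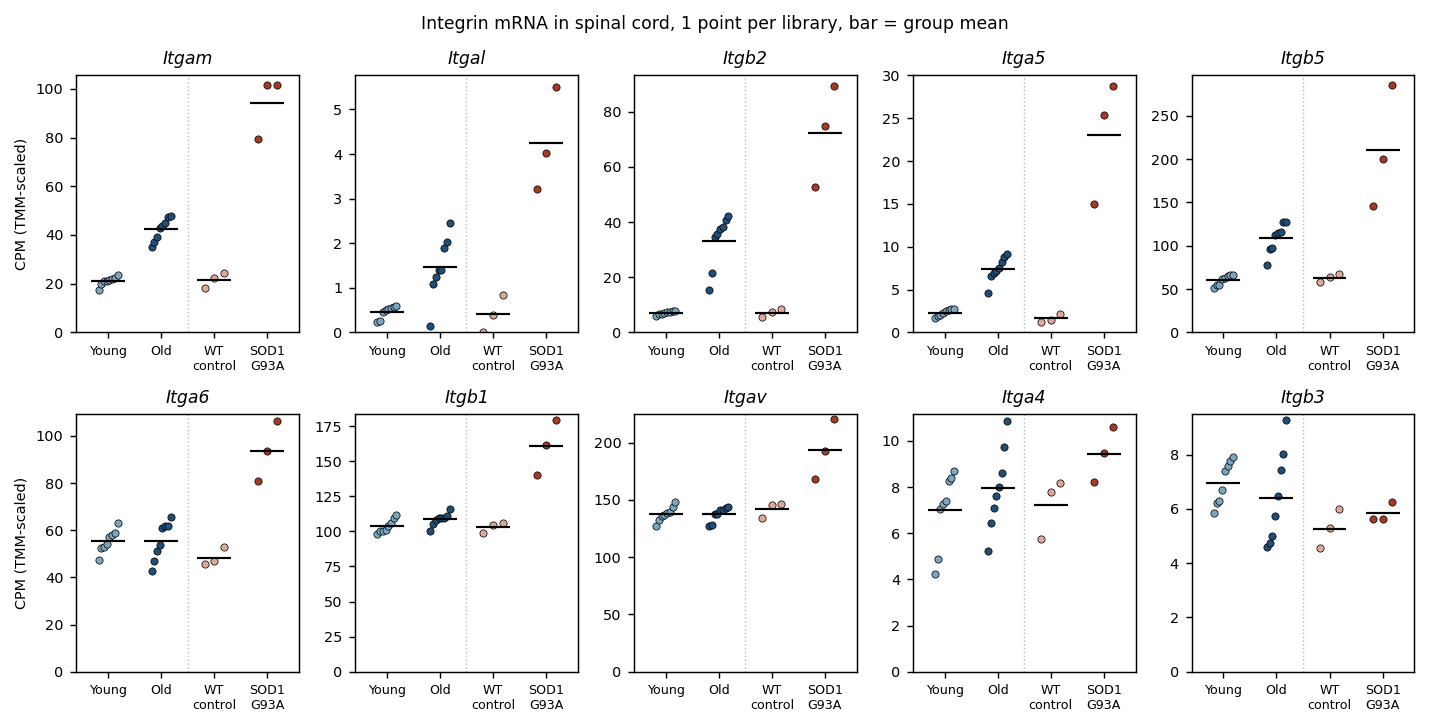
Expression of the 10 integrin genes as CPM (linear axis from 0) in each library of the young, old, WT control and SOD1-G93A groups, with a bar at each group mean (n = 8, 8, 3 and 3). Itgam, Itgb2, Itga5 and Itgb5 show no overlap between groups in either experiment, whereas Itgb3 overlaps in both.

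The same genes were next compared between symptomatic SOD1-G93A and control cord. All 3 genes of the CD18 family among the members (Itgb2, Itgam and Itgal) were higher in SOD1-G93A cord. Itgb2 was 5.53, 7.49 and 8.35 CPM in the 3 controls and 52.9, 74.9 and 89.3 CPM in the 3 SOD1-G93A libraries. Itgam was 18.1, 22.4 and 24.2 CPM in controls and 79.5, 102 and 102 CPM in SOD1-G93A cord. Itgal had 0, 4 and 10 counts in the controls, or up to 0.842 CPM, and 32, 45 and 65 counts in the SOD1-G93A libraries, or 3.22 to 5.51 CPM. No library of either group crossed into the other for these genes. Itgb2 was 10.2-fold higher (edgeR log2 3.35, SE 0.22, adjusted p = 8.14e-05) and Itgam was 4.39-fold higher (edgeR log2 2.13, SE 0.14, adjusted p = 8.14e-05). The edgeR estimate for Itgal was log2 3.39 with an SE of 0.64 (adjusted p = 0.00529), which rests on few control counts and ranged from 2.76 to 4.54 when 1 library was left out.

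Among the matrix integrins Itga5 changed most. It was 1.26, 1.46 and 2.18 CPM in controls and 15, 25.3 and 28.7 CPM in SOD1-G93A cord, a 14.2-fold difference (edgeR log2 3.83, SE 0.31, adjusted p = 0.000147). Itgb5 was 58.2, 63.4 and 67.6 CPM in controls and 146, 200 and 286 CPM in SOD1-G93A cord, a 3.34-fold difference (edgeR log2 1.74, SE 0.21, adjusted p = 0.000738). Both genes had also risen with age, and again the groups did not overlap.

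The 3 genes Itga6, Itgb1 and Itgav, which had not passed the test with age, passed it here. Itga6 was 45.7, 46.9 and 52.7 CPM in controls against 81.0, 93.7 and 106 CPM in SOD1-G93A cord (edgeR log2 0.95, SE 0.11, adjusted p = 0.000672). Itgb1 was 99.0, 104 and 106 CPM against 140, 162 and 180 CPM (edgeR log2 0.64, SE 0.10, adjusted p = 0.00289). Itgav was 135, 145 and 147 CPM against 168, 193 and 220 CPM (edgeR log2 0.45, SE 0.11, adjusted p = 0.0147). All 3 SOD1-G93A libraries lay above all 3 controls for each gene. The Itgav result was the least secure, since its adjusted p was between 0.0502 and 0.0644 in 4 of the 6 fits that left out 1 library (each of the 3 controls, and the SOD1-G93A library with the intermediate value).

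Itga4 and Itgb3 did not pass the test. Itga4 was 5.76, 7.78 and 8.17 CPM in controls and 8.24, 9.47 and 10.6 CPM in SOD1-G93A cord, which do not overlap but lie close together (edgeR log2 0.39, SE 0.19, adjusted p = 0.154). Itgb3 was 4.55, 5.30 and 5.98 CPM in controls and 5.64, 5.64 and 6.27 CPM in SOD1-G93A cord, which overlap (edgeR log2 0.15, SE 0.20, adjusted p = 0.581).

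All 10 integrins could be tested in the ALS experiment, and 8 were higher, 0 were lower and 2 did not pass. Across the 14386 genes tested 18.4% were higher and 15.5% were lower. Of the 8, those past a log2 fold change of 1 numbered 5 (Itga5, Itgal, Itgb2, Itgam and Itgb5), against 8.5% of all genes. Complete separation of 3 from 3 libraries was seen for 9 of the 10, Itgal included, against 25.7% of all genes. Itgal passed the filter on low counts only through the SOD1-G93A libraries, where it was high. With at least 10 counts asked of every library, Itgal was not tested, 7 integrins were higher and 4 were past a log2 of 1. The median log2 fold change was 1.35 over the 10 integrins and 0.00 over all genes.

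**Figure D2:**
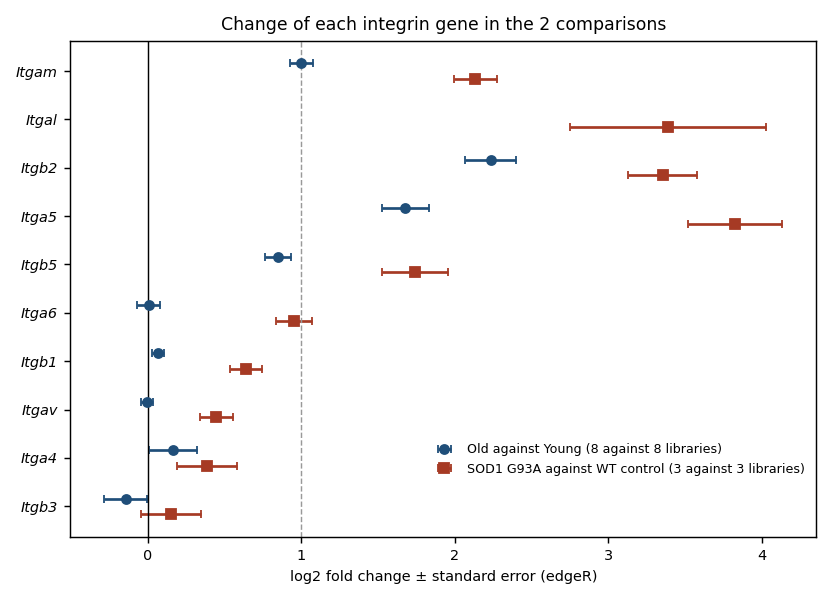
Log2 fold change with its standard error (edgeR) for each integrin in old against young cord (circles) and in SOD1-G93A against WT control cord (squares), with lines at 0 and 1. Itga5 reaches 1.68 with age and 3.83 in SOD1-G93A cord, while Itgb3 has values of -0.14 and 0.15. Itgal has no circle because its counts were too low to be tested with age.

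The rank of the libraries across integrins was also described. In the SOD1-G93A group 1 library was the lowest for 9 of the 10 genes, all but Itga4, and another was the highest for 9, all but Itgam. In the old group 1 library was the lowest for 6 genes (Itgam, Itgal, Itgb2, Itga5, Itga6 and Itgb5). The lowest values were more spread in the other two groups, where no young library was lowest for more than 4 genes and no control library for more than 5. Without the old library that was lowest for 6 genes, the Itgb2 difference with age was log2 2.34 in the edgeR fit, against 2.23 with it.

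To ask whether the integrins responded differently in the 2 settings, the difference between the SOD1-G93A and aging log2 fold changes was tested in 1 edgeR fit of all 22 libraries. It was positive and passed an adjusted p of 0.05 for 7 integrins, with 0 in the negative direction. Among the 14502 genes tested 11.6% had a more positive and 14.2% a more negative effect in SOD1-G93A cord. The largest of these was Itga5 with a difference of 2.12 (SE 0.31, edgeR adjusted p = 3.71e-05), followed by Itgam with 1.11 (SE 0.15, adjusted p = 1.25e-05) and Itgb2 with 1.09 (SE 0.31, adjusted p = 0.0107). Without the control library that was lowest for Itgam and Itgb2, the Itgb2 difference was 0.93 and no longer passed (edgeR adjusted p = 0.0508). Itgal differed by 1.65 (SE 0.74, edgeR adjusted p = 0.101), but by 2.79 (adjusted p = 0.0228) without the control library that held 10 Itgal counts. Itga4 and Itgb3 differed by 0.20 (SE 0.28) and 0.27 (SE 0.25), with edgeR adjusted p of 0.651 and 0.476. Kit, sex and age range differ between the experiments together with the disease, and these cannot be told apart.

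The balance of alpha to beta chain mRNA was described as the ratio of their FPKM values in each library, with no test. Itgam exceeded Itgb2 in all 8 young libraries, with ratios of 1.45 to 2.24 and a median of 1.73. In old cord the ratio was 0.604 to 1.23 with a median of 0.724, and it was below 1 in 7 of 8 libraries. The same shift was seen in the ALS experiment, from 1.69, 1.91 and 1.99 in controls to 0.690, 0.809 and 0.892 in SOD1-G93A cord. These ranges did not overlap in either experiment. Itgb2 mRNA thus went from less than that of Itgam to more.

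CD18 has further alpha partners, and that of Itgax, the CD11c gene, was the most changed integrin subunit outside the 10. Itgax was 0.155 ± 0.136 FPKM in young and 5.6 ± 2.18 FPKM in old cord (SD, n = 8 each), and 0.190 ± 0.121 FPKM in control and 22.2 ± 7.70 FPKM in SOD1-G93A cord (n = 3 each). In SOD1-G93A cord its mean was above that of Itgam (19.6 ± 2.55 FPKM), and the libraries of the pair overlapped. Itgam made up 83.6 ± 6.53% of the summed FPKM of the 4 beta2 partners (Itgam, Itgal, Itgax and Itgad) in young cord and 59.4 ± 9.35% in old cord. The share was 82.0 ± 13.3% in controls and 43.5 ± 7.67% in SOD1-G93A cord. With all 4 partners summed, the ratio to Itgb2 was 1.82 to 2.61 in young and 1.002 to 1.56 in old cord, which still did not overlap. In the ALS experiment that summed ratio was 1.86 to 2.87 in controls and 1.72 to 1.93 in SOD1-G93A cord, which overlap. The sum over partners was chosen after the Itgam to Itgb2 ratios were seen.

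For the fibronectin receptor, the ratio of Itga5 to Itgb1 was 0.0125 to 0.0213 in young cord and 0.0356 to 0.0798 in old cord. It was 0.0101, 0.0116 and 0.0179 in controls and 0.0829, 0.108 and 0.120 in SOD1-G93A cord. Itga5 mRNA therefore remained a small fraction of that of its beta chain in every group. The ratio of Itgav to Itgb5 was 1.08 to 1.74 in young and 0.475 to 0.916 in old cord, and 0.970 to 1.16 in control and 0.364 to 0.585 in SOD1-G93A cord, without overlap in either experiment. The ratios of Itgal to Itgb2, Itga4 to Itgb1, Itga6 to Itgb1 and Itgav to Itgb3 overlapped between groups in both experiments. For Itgav to Itgb1 the groups overlapped with age, but in the ALS experiment the ratio was 0.746 to 0.865 in controls and 0.626 to 0.711 in SOD1-G93A cord. Itgav FPKM varied from 17.6 to 35.3 within the old group where its CPM varied from 127 to 143, and the transcript length estimates that enter FPKM were not used here.

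**Figure D3:**
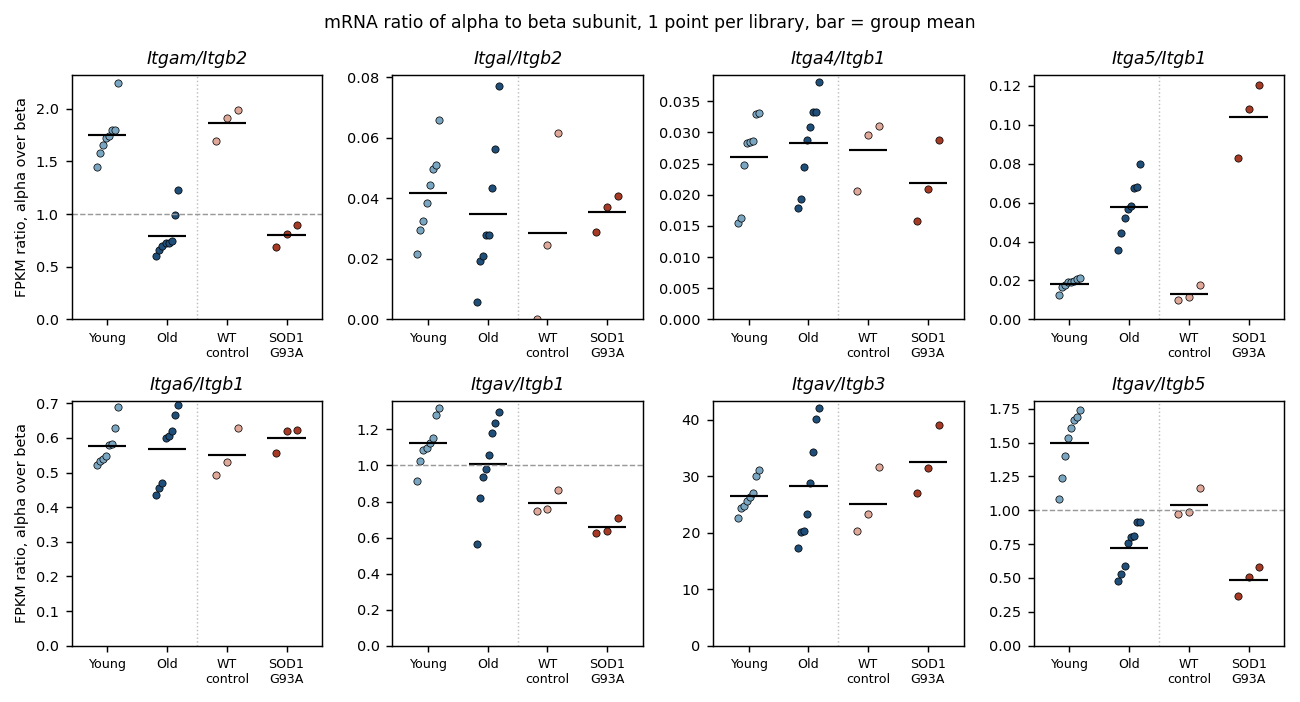
Ratio of alpha to beta chain mRNA (FPKM over FPKM, linear axes from 0) in each library for 8 known integrin pairs, with group means as bars. A dashed line marks 1 for Itgam over Itgb2, Itgav over Itgb1 and Itgav over Itgb5. Itgam over Itgb2 moves from a mean of 1.75 in young to 0.796 in old cord and from 1.87 in control to 0.797 in SOD1-G93A cord, while Itga6 over Itgb1 stays between means of 0.550 and 0.6.

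Since CD11b and CD18 are carried mainly by microglia in the cord, microglial markers were measured beside the integrins. Of 12 microglia and macrophage markers, 10 were higher and 0 lower in old cord, with a median log2 fold change of 1.17. Their summed expression was 378 to 423 CPM in young and 609 to 1016 CPM in old libraries. In SOD1-G93A cord 9 of the 12 were higher and 0 lower, with a median log2 fold change of 2.12 and a sum of 1582 to 2898 CPM against 393 to 471 CPM in controls. The largest increases were those of Trem2, a lipid receptor of microglia (log2 2.37 with age, edgeR adjusted p = 1.48e-11), and Fcrls (log2 4.08 in SOD1-G93A cord, edgeR adjusted p = 8.14e-05). The homeostatic microglial genes P2ry12 and Siglech, named after their values were seen, did not pass the test in either experiment (P2ry12 log2 0.05 and 0.13, Siglech log2 0.16 and 0.43). Other homeostatic genes of the list did pass with age, namely Tmem119 (log2 0.54, edgeR adjusted p = 0.00141), Cx3cr1 (log2 0.91, adjusted p = 2.86e-08) and Olfml3 (log2 1.17, adjusted p = 1.26e-09). Cx3cr1 and Olfml3 were also higher in SOD1-G93A cord (log2 1.91 and 1.99), where Tmem119 had a log2 value of 0.53 and an edgeR adjusted p of 0.0599. In tissue RNA, more cells of a type and more RNA per cell cannot be told apart.

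Expressed relative to the mean log2 CPM of the 12 microglial markers in the same library, Itgam was nearly level in all groups. Its difference from the marker mean was 0.09 ± 0.15 in young, -0.03 ± 0.09 in old, -0.10 ± 0.11 in control and -0.10 ± 0.14 in SOD1-G93A cord (log2, SD). Itgb2 was different, with -1.46 ± 0.12 in young and -0.43 ± 0.34 in old cord, and -1.68 ± 0.19 in control and -0.51 ± 0.06 in SOD1-G93A cord. The marker mean itself was 4.33 in young and 5.43 in old cord on this log2 scale, and Itgb2 remained below it in each group while rising by more than the mean. That mean depends on the markers chosen. Single markers changed by log2 0.05 to 2.37 with age and by 0.13 to 4.08 in SOD1-G93A cord. The Itgb2 changes of 2.23 and 3.35 lay within these spans. Itga5 also moved up relative to the markers, from -2.98 ± 0.21 to -2.52 ± 0.14 with age and from -3.70 ± 0.29 to -2.17 ± 0.17 in the ALS experiment. Itgb5 moved down, from 1.59 ± 0.19 to 1.32 ± 0.11 and from 1.45 ± 0.19 to 1.01 ± 0.19. The other matrix integrins also lay lower relative to the markers, as for Itgav, which went from 2.78 ± 0.11 to 1.67 ± 0.21 with age. The part of microglial cell number in these values was not tested.

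**Figure D4:**
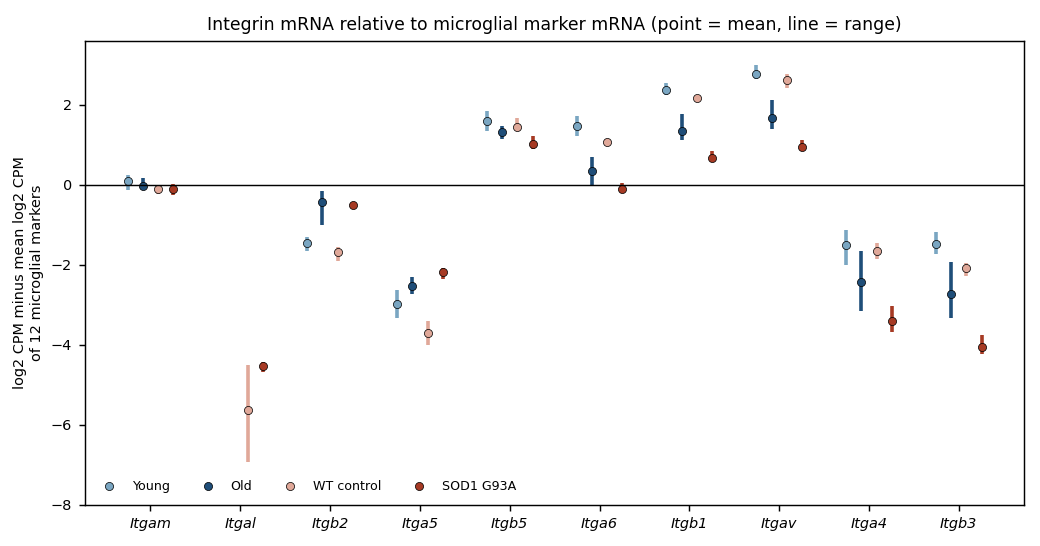
Log2 CPM of each integrin minus the mean log2 CPM of 12 microglia and macrophage markers in the same library, with the group mean as a point and the range over libraries as a line (n = 8 young, 8 old, 3 WT control and 3 SOD1-G93A). Itgam stays between means of -0.10 and 0.09 in the 4 groups, whereas Itgb2 goes from -1.46 to -0.43 with age and from -1.68 to -0.51 in SOD1-G93A cord. Itgal is shown for the ALS experiment alone.

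Itgal and Itga4 are also carried by lymphocytes, and the T cell markers had too few counts to be tested in either comparison. The summed expression of 9 T cell markers was 0.549 to 2.03 CPM in young and 2.31 to 4.90 CPM in old libraries, and 0.845 to 1.90 CPM in control and 2.37 to 3.58 CPM in SOD1-G93A libraries. The ranges of this sum did not overlap in either experiment, with the higher sums in old and in SOD1-G93A cord. Cd3d, Cd3g and Cd2, named after their values were seen, had 0 counts in the 3 controls and means of 0.181, 0.0901 and 0.0917 CPM in SOD1-G93A cord. These means lay below the floor of the SOD1-G93A libraries (0.254 to 0.302 CPM), so these genes taken singly do not show a difference from the controls. The 8 neutrophil markers summed to at most 2.58 CPM in any library. The part of lymphocytes in the Itgal values was not tested. Markers of other cells also moved in SOD1-G93A cord, where 5 of 5 astrocyte markers were higher (8242 to 14296 CPM in sum against 2604 to 3361 in controls) and 5 of 7 neuron markers were lower (1743 to 2871 CPM against 3753 to 3862). Endothelial markers summed to 178 to 185 CPM in SOD1-G93A and 192 to 213 CPM in control cord, with 1 of 7 lower. Whether these changes enter the values of the matrix integrins was not tested.

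The 16 other integrin subunits were described in the same way. With age 10 of them could be tested, and Itgax alone was higher (0.454 ± 0.376 CPM in young and 22.2 ± 7.65 CPM in old cord, edgeR log2 5.64, adjusted p = 1.70e-11). Its young mean lay within the floor range of the young libraries (0.329 to 0.582 CPM). Itgax passed the filter on low counts through the old libraries here and through the SOD1-G93A libraries in the ALS experiment. Its log2 values in both comparisons therefore rest on few counts in the lower group. Itga10, a collagen receptor chain, Itgb4, a laminin receptor chain, and Itgb8, a partner of the alphaV chain, fell by 0.74, 0.25 and 0.25 on the log2 scale (edgeR adjusted p of 0.00278, 0.00422 and 0.00599). In SOD1-G93A cord 14 could be tested, and Itgax (edgeR log2 6.92, adjusted p = 8.14e-05), Itga7, a laminin receptor chain (edgeR log2 0.998, adjusted p = 0.00538), and Itga2b, a platelet integrin chain (edgeR log2 1.25, adjusted p = 0.0454), were higher. Itgb4 was lower there too (edgeR log2 -0.40, adjusted p = 0.0475). The medians over the tested subunits were -0.11 with age and 0.32 in the ALS experiment. These counts describe the 2 lists, and the difference between the lists was not tested.

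Genes for the ligands of these receptors were examined from a list of 31. With age 26 were tested, and 11 were higher, 1 was lower and 14 did not pass. C3, whose fragment iC3b is the ligand of CD11b and CD18, was 2.47-fold higher (edgeR log2 1.31, adjusted p = 2.32e-08). Icam1, the ligand of LFA-1 and CD11b/CD18, was 3.66-fold higher (edgeR log2 1.87, adjusted p = 1.42e-07). Spp1, or osteopontin, bound by alphaV and beta1 integrins, was 2.12-fold higher (edgeR log2 1.08, adjusted p = 3.28e-08), and Tgfb1, whose latent form is bound by alphaV integrins, was 2.43-fold higher (edgeR log2 1.28, adjusted p = 3.42e-08). In SOD1-G93A cord 13 of 26 were higher and 0 lower. They included Ccn1, a matricellular ligand of alphaV integrins (edgeR log2 3.82, adjusted p = 0.000113), Icam1 (edgeR log2 2.49, adjusted p = 0.000176), Spp1 (edgeR log2 2.46, adjusted p = 0.000199) and Thbs2, a thrombospondin (edgeR log2 2.01, adjusted p = 0.000296). Fn1, the fibronectin bound by the Itga5 product and named here for that reason after its values were seen, was log2 0.72 higher with age and 1.5 higher in SOD1-G93A cord, with edgeR adjusted p of 1.20e-06 and 0.00150.

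Finally, genes of integrin activation and downstream signaling were examined from a list of 33, of which 32 were tested in each comparison. With age 16 were higher and 3 were lower, and in SOD1-G93A cord 20 were higher and 3 were lower. Apbb1ip, which encodes the Rap1 adaptor RIAM, was log2 1.01 higher with age (edgeR adjusted p = 3.47e-09). The Src-family kinases Lyn and Fgr were log2 1.02 and 2.11 higher (edgeR adjusted p = 3.81e-07 and 2.19e-06), and the focal adhesion kinase relative Ptk2b was log2 0.85 higher (edgeR adjusted p = 1.98e-07). In SOD1-G93A cord the smallest adjusted p values were those of the adaptor Fyb (edgeR log2 2.88, adjusted p = 0.000127), the exchange factor Vav1 (edgeR log2 2.70, adjusted p = 0.000177), Lyn (edgeR log2 2.27, adjusted p = 0.000217) and Fermt3 (edgeR log2 2.5, adjusted p = 0.000313). Fermt3 encodes kindlin-3, the form of hematopoietic cells. Its widely expressed relative Fermt2, named after its values were seen, had log2 values of -0.11 with age and -0.06 in the ALS experiment, with edgeR adjusted p of 0.0910 and 0.641. The medians over the 32 genes were 0.20 with age and 0.58 in SOD1-G93A cord.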

How the data were processed

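The authors aligned reads from whole spinal cord with STAR, estimated gene counts by RSEM (Ensembl genes, mm10), and made 2 tables of 21995 genes; the submitters' processing notes also name SAMtools 1.3. The authors deposited RSEM expected counts, already whole numbers, and log2 values of FPKM plus 1. All 22 columns of each were used. Columns name a group but no replicate number. Libraries of a group differed from each other by more than sampling noise (chi-square per degree of freedom at least 2.52).

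For each comparison genes were kept by filterByExpr (minimum count 10, minimum total 15), scaled by TMM and tested with edgeR 4.0.16 (quasi-likelihood test, Benjamini-Hochberg adjustment over all genes tested, threshold 0.05, with a log2 fold change of 1 as a second threshold). CPM was scaled by TMM. Log2 CPM relative to microglial markers used a prior count of 2. FPKM was recovered from the log2 table. Alternatives were DESeq2 1.42.0, RLE factors, other filters, 1 fit of all libraries, limma 3.58.1 on the log2 values and leaving out each library. R 4.3.3, Python 3.11.15, pandas 2.3.3 and matplotlib 3.10.9 were used. On simulated counts with 1.5 log2 changes the test recovered 98.98% of changed genes in the aging design (13570 genes) and 95.45% in the ALS design (14250 genes), none in the wrong direction, and 8.491% and 7.353% of calls fell on unchanged genes.

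The members, the marker and pathway lists and the tests were chosen with earlier results of these data known. The genes named were all 10 integrins and, in each other list used, up to 4 per comparison with the smallest adjusted p, others being named as chosen after their values were seen. Of the lists examined beside those in the report, platelet markers had 0 of 2 tested genes higher with age and 1 of 2 in SOD1-G93A cord, and red cell markers 0 of 5 in both. The 1 platelet marker higher in SOD1-G93A cord was Itga2b, which is also counted among the other integrin subunits. Higher and lower counts with age were 0 and 3 of 7 for endothelial, 1 and 0 of 6 for pericyte and smooth muscle, 0 and 0 of 4 for meningeal fibroblast, 1 and 2 of 5 for oligodendrocyte, 3 and 1 of 5 for astrocyte, 1 and 0 of 7 for neuron and 1 and 0 of 2 for Schwann cell markers. In SOD1-G93A cord they were 3 and 1 of 6 for pericyte and smooth muscle, 1 and 0 of 5 for meningeal fibroblast, 0 and 0 of 5 for oligodendrocyte and 2 and 0 of 4 for Schwann cell markers. SOD1-G93A mice overexpressing SIRT1 in motor neurons were not analysed here, and protein sequences were not used here.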

Additional observations from a re-analysis of the deposited data

Results flagged for a closer look

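For 7 integrins the effect in SOD1-G93A cord differed from the effect of age by the test of the difference itself, in 1 edgeR quasi-likelihood fit of all 22 libraries with Benjamini-Hochberg adjustment. The log2 differences, SOD1-G93A effect minus aging effect, were 1.11 for Itgam, 1.09 for Itgb2, 2.12 for Itga5, 0.92 for Itga6, 0.42 for Itgav, 0.55 for Itgb1 and 0.87 for Itgb5. The adjusted p values of the last 4 were 7.43e-05, 0.00134, 7.82e-05 and 0.00237. Without the control library that was lowest for Itgam and Itgb2, the Itgb2 difference was 0.93 and its adjusted p was 0.0508. The Itgal difference was 1.65 with an adjusted p of 0.101, and it became 2.79 with an adjusted p of 0.0228 without the control library that held 10 Itgal counts. Library kit, sex and age range coincide with the experiment, so they cannot be told apart from these differences. In 20 groups of libraries (10 genes in the young and old groups), 0 held a library past the limit of Dixon's test, which chance passes in about 1 of 20 groups.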

How the results depend on the processing

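No paired analysis was possible because the columns of the tables carry no replicate numbers. With 3 libraries a group in the ALS experiment, each fit that left out a library had 2 in 1 group. With age, the counts of integrins higher were 4 in each of the 16 fits that left out a library and 2 to 3 past a log2 of 1, and the Itgam value decided the latter. By limma on the log2 of FPKM plus 1, only 1 integrin (Itgb2) was past a log2 of 1 with age, against 3 in the main test, since the added 1 shrinks the changes of genes with low FPKM. In the ALS experiment 7 to 8 integrins were higher and 5 to 6 past a log2 of 1, and in the test of the difference between experiments 6 to 8 passed, over 6 fits each. The sign changes all concerned Itga6 and Itgav with age, whose values were close to 0 throughout. Itga6 was -0.00357 without the filter on low counts and -0.0295 to 0.0506 when a library was left out, and Itgav was 0.000265 with at least 10 counts in every library and -0.0224 to 0.0121 when a library was left out, with adjusted p of 0.611 or more in each of the fits that left out a library. Excluding those fits, 52 of 54 log2 values of single integrins with age, 59 of 59 in the ALS experiment and 30 of 30 for the difference kept their direction and their side of the threshold. The counts of integrins called stayed within 1.5 times except for the limma count with age given above. Low counts limit Itgal with age.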
